A study of Mus musculus with 15 samples.

Results

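The livers of 3 unexposed newborn mice (PND1 control) and 3 unexposed mice of 10 weeks (PND70 control) were compared across 42006 probes, on 6 of the 15 arrays of the series. The arrays were chosen by their titles alone, newborn tap and 10 week tap/tap, replicates 1 to 3 of each. Every animal was an apolipoprotein E-knockout mouse (B6.129P2-Apoe tm1Unc/J in the methods, while the labels give the strain as C57/BL6J), so the controls carry the knockout as well, and each mouse came from a litter of its own. Dams of both groups drank arsenic-free tap water, and the PND70 mice stayed on it after weaning. The sex of the mice was not given in the sources used here. Total liver RNA was labelled with Cy3 and hybridized with Cy5-labelled reference RNA, a pool from 11 mouse cell lines of which one derives from liver, on 60-base oligonucleotide arrays. A separate set of 3 PND1 and 3 PND70 mice, whose dams drank water with 49 ppm arsenic before birth, served as a second measurement of the same life stage change.

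The newborn mouse liver is still a site of blood cell formation, and its hepatocytes divide and express fetal plasma proteins. By adulthood blood formation has moved to the bone marrow, most hepatocytes have stopped dividing, and the genes of adult plasma proteins, bile acid and xenobiotic metabolism are in use. The files used here give probe IDs and sequences without gene names, and no table pairing these probes with genes was used, so pathways and the liver's own marker genes were not analysed here and the results are given by probe, with sequences. The arrays measured whole tissue, in which fewer cells of a type and less RNA per cell cannot be told apart.

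The images of all PND70 arrays were processed on one day and those of all PND1 arrays on the next, so day and age cannot be told apart. Since the reference RNA was the same on every array, the Cy5 channel was used as a measure of what day, scan and hybridization add, and its values stand beside the results. Median net Cy3 signals (spot minus local background, in scanner units) were 109.1 to 154.6 on the PND1 control arrays and 146.6 to 193.1 on the PND70 control arrays. Those of Cy5 were 257.5 to 283.7 and 418.6 to 502.6, with no overlap between the ages before normalization. Between 91.5% and 96.2% of probes had a Cy3 signal above that of 95% of the 314 negative control spots (the negative control level) on these 6 arrays. Log2 ratios correlated across probes at 0.932 to 0.948 among the PND1 control arrays, 0.960 to 0.990 among the PND70 control arrays and 0.648 to 0.711 between ages.

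The probes with the largest fitted change show the scale of the difference, and their sequences are given as their identity in the files. They are the 5 in each direction with the largest fitted difference among probes that passed a Benjamini-Hochberg adjusted p of 0.05 in limma, a linear model fitted to all probes, whose 3 and 3 arrays did not overlap and whose Cy3 signal alone moved the same way. All are read 5′ to 3′, and capitals mark AATAAA, the commonest polyadenylation signal, which 1 of these 10 holds.
The first 5 were higher at PND70.
Z00033491-1: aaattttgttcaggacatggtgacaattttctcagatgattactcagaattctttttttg
Z00000398-1: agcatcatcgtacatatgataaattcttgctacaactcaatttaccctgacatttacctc
Z00022843-1: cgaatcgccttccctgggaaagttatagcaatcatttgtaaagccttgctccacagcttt
Z00018408-1: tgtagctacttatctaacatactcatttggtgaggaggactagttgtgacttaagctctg
Z00060225-1: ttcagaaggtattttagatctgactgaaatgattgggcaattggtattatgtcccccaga
The other 5 were lower at PND70.
Z00058188-1: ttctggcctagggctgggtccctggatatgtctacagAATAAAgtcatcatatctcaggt
Z00030743-1: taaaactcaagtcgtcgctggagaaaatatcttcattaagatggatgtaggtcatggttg
Z00034496-1: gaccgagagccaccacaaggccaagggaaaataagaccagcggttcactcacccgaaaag
Z00027126-1: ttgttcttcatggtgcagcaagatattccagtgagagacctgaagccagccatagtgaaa
Z00048522-1: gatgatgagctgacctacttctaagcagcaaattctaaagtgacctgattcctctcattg

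Among the probes higher at PND70, Z00033491-1 had log2 ratios of liver over reference of 0.33, 0.15 and -0.14 at PND1 and 6.58, 6.71 and 6.61 at PND70. Its net Cy3 signal was 31.4 to 38.4 scanner units at PND1, above the negative control level on 1 of 3 arrays, and 3759 to 4932 at PND70. The transcript read by this probe was therefore at the edge of detection in the newborn and at a bright level in the adult, with a fitted log2 difference of 6.52 (limma adjusted p = 1.13e-11) whose size rests on a PND1 level near background. For Z00000398-1 the log2 ratios were 2.04, 2.23 and 0.83 at PND1 and 7.53, 7.51 and 7.43 at PND70. The PND1 mice were spread over more than 1 log2 unit, while the PND70 mice lay within 0.11, and the difference was 5.79 ± 0.60 (SE, limma adjusted p = 1.48e-05). This liver signal was 86.6 to 198 units at PND1 and 17870 to 22410 at PND70.

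Z00022843-1, Z00018408-1 and Z00060225-1 lay below the reference at PND1 and above it at PND70 on every array. The log2 ratios of Z00022843-1 were -0.97, -0.94 and -1.10 at PND1 and 4.53, 4.85 and 4.77 at PND70. Those of Z00018408-1 were -1.42, -1.61 and -1.66, then 3.88, 3.96 and 4.03. In both, the spread within an age was below 0.35 log2 units, against differences of 5.72 ± 0.17 and 5.52 ± 0.24 (SE). Z00060225-1 had -1.95, -1.995 and -2.20 at PND1 and 3.93, 3.11 and 2.87 at PND70, a difference of 5.35 ± 0.24 (SE), with the largest PND70 spread of the 5 (SD 0.56). Without background subtraction its difference was 3.62, and that of Z00033491-1 was 4.51.

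Among the probes lower at PND70, Z00058188-1 had log2 ratios of 5.37 to 5.66 at PND1 and -1.65, -1.59 and -1.78 at PND70, a fitted difference of -7.22 (limma adjusted p = 2.65e-11). Its net Cy3 signal was 61580, 62150 and 65140 units at PND1, the last of these at the scanner's ceiling, and 167 to 209.5 at PND70, so the exact size of the difference is not known. Z00030743-1 had 6.60, 6.81 and 6.57 at PND1 and -0.41, -0.06 and -0.17 at PND70, with 2 of 3 PND70 arrays above the negative control level. Both probes were far above the reference in the newborn and at or below it in the adult, and the 3 mice of each age lay within 0.35 of each other.

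Z00034496-1 had log2 ratios of 1.86, 1.80 and 2.01 at PND1 and -4.54, -4.94 and -4.99 at PND70. Its Cy5 spot was saturated on all 6 arrays, so its level over the reference is not known and its Cy5 difference of 0.00 carries no information. Its liver spot was saturated on 1 of 3 PND1 arrays too, so the fitted differences of -6.71 in the ratio and -6.33 in Cy3 alone have no exact size. Z00048522-1 had 6.74, 6.80 and 6.49 at PND1 and 0.04, 0.33 and 0.36 at PND70, a fitted difference of -6.43 whose size is likewise not exact, with 2 of 3 PND1 liver spots saturated. Among the 5 lower probes the newborns differed most in Z00027126-1, with 5.74, 6.75 and 6.96 at PND1 against -0.28, -0.14 and -0.16 at PND70. The Cy5 differences of the 10 probes ran from -2.99 to 1.95, always smaller than the difference of the ratio.

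**Figure D1:**
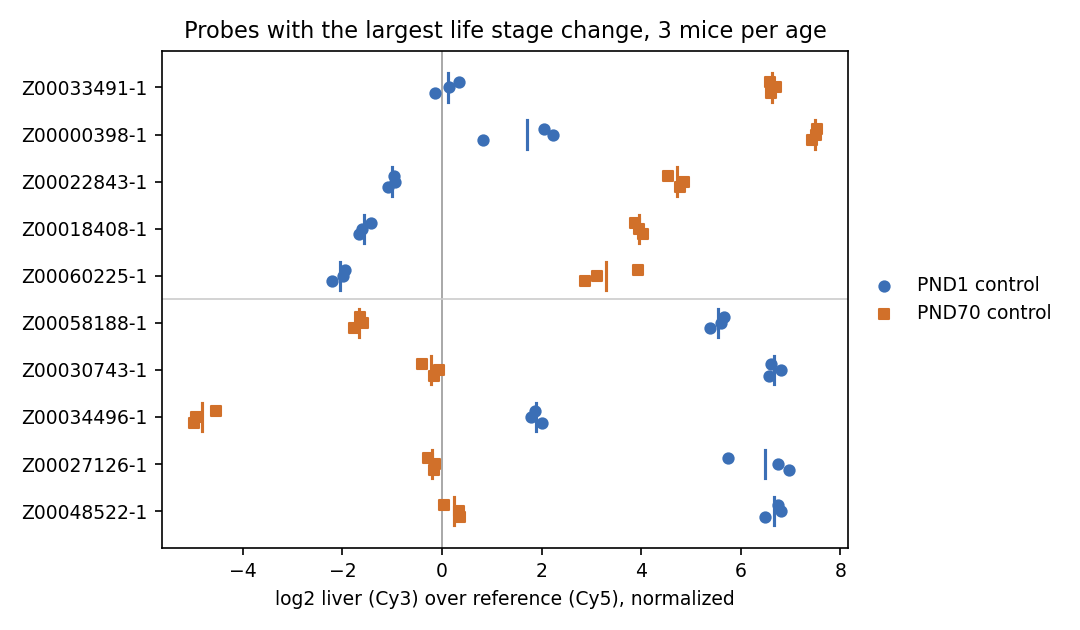
Log2 ratio of liver over reference for the 10 probes with the largest fitted life stage change, 1 point per mouse and a bar at the mean of 3 mice. The 5 upper probes reach 2.87 to 7.53 at PND70, and the 5 lower probes fall from 1.80 to 6.96 at PND1 to between -4.99 and 0.36.

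The probe Z00034496-1 has close relatives on the array, which allowed the same change to be read from different oligonucleotides. Probes were linked where they share at least 30 consecutive bases with another probe of the group, and 6 probes form its group. Their sequences follow, with the longest run shared with Z00034496-1 in capitals.
Z00030367-1: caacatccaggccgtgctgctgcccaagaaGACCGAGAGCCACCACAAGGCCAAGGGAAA
Z00030368-1: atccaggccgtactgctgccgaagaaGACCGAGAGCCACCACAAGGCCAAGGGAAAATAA
Z00032026-1: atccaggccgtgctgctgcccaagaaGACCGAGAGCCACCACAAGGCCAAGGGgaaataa
Z00033752-1: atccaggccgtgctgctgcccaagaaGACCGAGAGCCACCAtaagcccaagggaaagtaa
Z00059316-1: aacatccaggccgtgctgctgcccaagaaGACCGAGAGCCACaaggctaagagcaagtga

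All 6 probes of this group were lower at PND70 by at least 2-fold. Z00030367-1, for example, had log2 ratios of 1.75, 1.15 and 1.93 at PND1 and -2.68, -2.87 and -2.57 at PND70. Z00059316-1, which shares a run of 13 bases with Z00034496-1, had 1.36, 1.06 and 1.74, then -2.52, -2.42 and -2.36. PND1 replicate 2 gave the lowest PND1 ratio in all 6, and in 4 of the 6 the Cy5 spot was saturated on every array. In Z00034496-1 and Z00032026-1 the liver spot was saturated on 1 PND1 array as well, so the sizes of the 6 changes are not compared. Probes this alike can bind each other's transcripts, and the 6 values are not independent. Across the array, 722 pairs of probes shared 30 or more bases without being the same, and their life stage differences lay a median of 0.12 apart. Of 146 such pairs with a 2-fold call, both probes were called 2-fold in 102, all 102 in the same direction, and in the rest 1 probe was. Z00028025-1 and Z00063258-1, for example, differed by 0.05 and -1.83. Where the same 60 bases stand under different names (51 pairs), the differences lay a median of 0.10 apart.

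Over all probes, the life stage difference reached 21363 of 42006 probes at an adjusted p of 0.05 (50.9%), 10022 higher (23.9%) and 11341 lower (27%) at PND70. A share of that size means that a call alone says little about any single probe, so a change of at least 2-fold was also required. That rule kept 4240 probes (10.1%), 1501 higher (3.57%) and 2739 lower (6.52%). Without background subtraction 2021 were kept, 765 higher and 1256 lower, which hold 46.7% of the 4240. The 3 and 3 arrays did not overlap for 57.2% of probes. Most changes were small: the median absolute difference was 0.25 log2 units over all probes, 0.50 among the probes called higher and 0.55 among those called lower.

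In the ratio, large decreases outnumbered large increases. At 4-fold or more, 661 probes were lower and 245 higher. At 8-fold the counts were 193 and 76, at 32-fold 26 and 10, and at 64-fold 10 and 1. Probes 8-fold higher had a median difference of 4.43 in Cy3 alone and 3.73 in the ratio. For probes 8-fold lower the medians were -3.64 and -3.66. The part of the reference channel in this imbalance was not tested. The balance of the 2-fold calls depended on scaling: 35.4% were higher at PND70 as processed here, 46.8% when the ratios themselves were quantile normalized, and 47.3% in the Cy3 channel without the reference. Lower 2-fold calls stayed the more numerous in all 3, but among calls of any size 46.9%, 55.6% and 53.4% were higher. The balance also moved with single arrays. Without PND70 control replicate 1, 1956 probes were 2-fold higher (40% of the 2-fold calls), against 1334 (33.3%) and 1300 (33.2%) without replicate 2 or 3. Without a PND1 control array the share was 34.7% to 35.9%. PND70 control replicate 1 correlated at 0.960 with replicates 2 and 3, which correlated at 0.990 with each other. Spread within an age differed with direction. Probes called higher had a median SD of 0.082 among the PND1 mice and 0.15 among the PND70 mice, and probes called lower had 0.12 and 0.094. In both sets the smaller SD was at the age with the lower ratio. The part of signal level and of single arrays in these SDs was not tested.

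The 2-fold changes were concentrated in bright probes. When probes were ranked by their mean Cy3 signal over both ages, none of the dimmest decile was called 2-fold, against 29.9% of the brightest decile, in which 446 probes were higher and 810 lower. Calls of any size rose from 12.3% to 70.5% over the same deciles. The median standard error rose too, from 0.084 to 0.12. The offset of the background correction compresses ratios at low signal, so a change in a dim transcript appears smaller than the same change in a bright one.

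Ranked instead by liver over reference, averaged over both ages, the changes lay at the ends. In the lowest decile, where the reference exceeded the liver by 0.73 log2 units or more, 1179 of 4200 probes were 2-fold lower and 49 higher. In the highest decile 955 of 4201 were higher and 594 lower. In the fifth decile, where liver and reference were nearly equal, 1.43% were called 2-fold. The mean that ranks the probes, here and for Cy3 above, contains the PND70 value, so a probe that fell moves towards the low end by its own change, and these shares are a description.

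**Figure D2:**
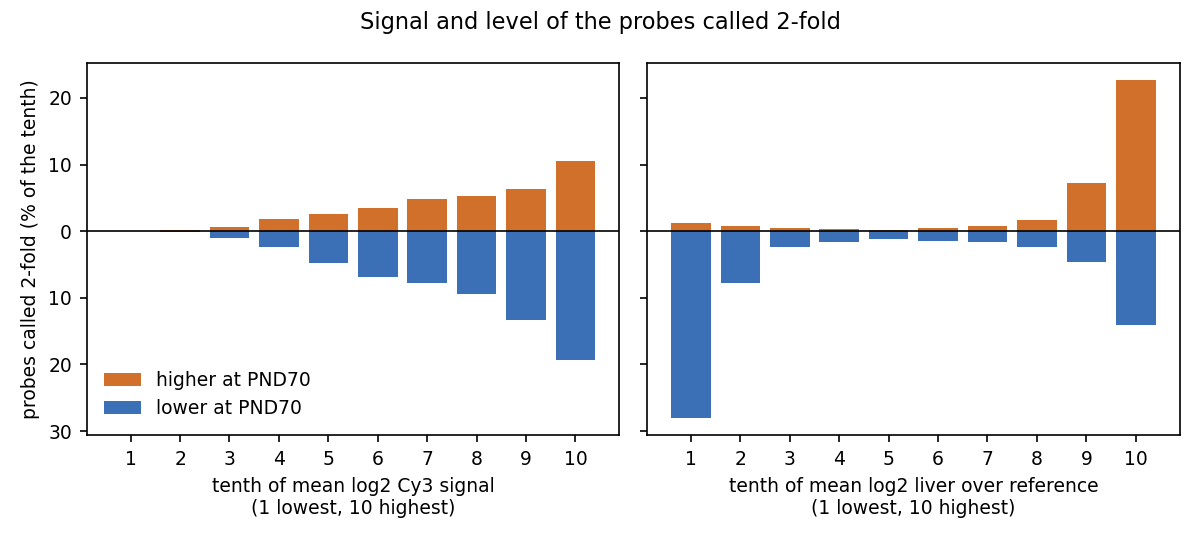
Share of probes called 2-fold higher (above 0) or lower (below 0) at PND70, in percent of each decile of about 4200 probes, ranked by mean log2 Cy3 signal (left) or mean log2 liver over reference (right) of the 6 control arrays. The brightest decile holds 10.6% higher and 19.3% lower, and the decile lowest over the reference holds 28.1% lower.

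The set of transcripts that stands out in liver over the cell lines was partly exchanged. In the PND1 mean, 871 probes exceeded the reference at least 4-fold, and in the PND70 mean 988 did. They shared 508, which is 58.3% of the newborn set and 51.4% of the adult set. At 32-fold over the reference the sets were 60 and 136 probes, with 34 shared. From the middle range (within 4-fold of the reference) 479 probes rose above 4-fold at PND70, of which 370 were called 2-fold higher, and 356 left for the middle range, of which 305 were called 2-fold lower. These classes are cut from the same values as the calls and are given as a description.

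The other end of the scale moved further. At PND1, 314 to 433 probes per control array lay 4-fold or more under the reference, and at PND70 1200 to 1291 did. From the middle range 941 probes entered that class, 750 of them called 2-fold lower, while 62 left it for the middle range. Moving from 4-fold over the reference to 4-fold under it were 7 probes, and 1 probe went the opposite way. The arrays of the prenatally exposed mice gave 350 to 381 probes at PND1 and 1027 to 1077 at PND70. The SD of the log2 ratio over all probes was 0.749 to 0.781 on the PND1 control arrays and 0.923 to 0.973 on the PND70 control arrays. The part of the higher raw Cy5 signal at PND70 in these counts was not tested.

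Few 2-fold changes were a switch between detected and not detected. Cy3 signals exceeded the negative control level on all 6 arrays for 36799 probes (87.6%), which held 1459 of the 1501 probes 2-fold higher and 2682 of the 2739 lower. There were 285 probes above it on all 3 PND70 arrays and no PND1 array. Of these, 112 were called higher (23.9% of all probes were), 11 of them 2-fold. The reverse held for 67 probes, of which 49 were called lower (27% of all probes were), 19 of them 2-fold. For the 30 probes called 2-fold only a bound can be given, the brighter age against the detection floor of the dim one. It is the smallest fold on 3 scales (both normalizations of Cy3, and net signal). These are bounds of the liver channel and not of the ratio. The PND70 Cy3 levels were at least 1.62-fold to at least 8.21-fold higher, and the PND1 Cy3 levels at least 1.6-fold to at least 108-fold higher. In the ratio the probes with the highest bound in each direction, Z00071906-1 and Z00022993-1, had fitted differences of 2.94 and -6.02, with Cy5 differences of 1.06 and -2.33. The sizes of these fitted differences rest on a dim level not above the negative controls.

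The second set of mice gave much the same life stage change. No array is shared between the 2 sets, although both share the days of image processing and the fit. Over all probes, 34703 of 42006 (82.61%) had the same direction in both sets, as did 67.62% of those not called in controls. Of the 1501 probes 2-fold higher in controls, 1493 were higher in the prenatally exposed mice. Of these 1501, 1438 were called higher at the adjusted p (47.7% of all probes were called) and 1125 were called 2-fold (75.0%, beside 9.09% of all probes in either direction). Of the 2739 probes 2-fold lower, 2733 were lower and 2045 were called 2-fold (74.7%). The median differences were 1.33 in controls and 1.23 in exposed mice for the higher probes, and -1.47 and -1.30 for the lower. Probes were selected in the controls, which alone would make the second value smaller. All 76 probes 8-fold higher and all 193 probes 8-fold lower were called 2-fold in the same direction. A test of the difference between the 2 changes called 2 of 42006 probes (0.00476%).

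**Figure D3:**
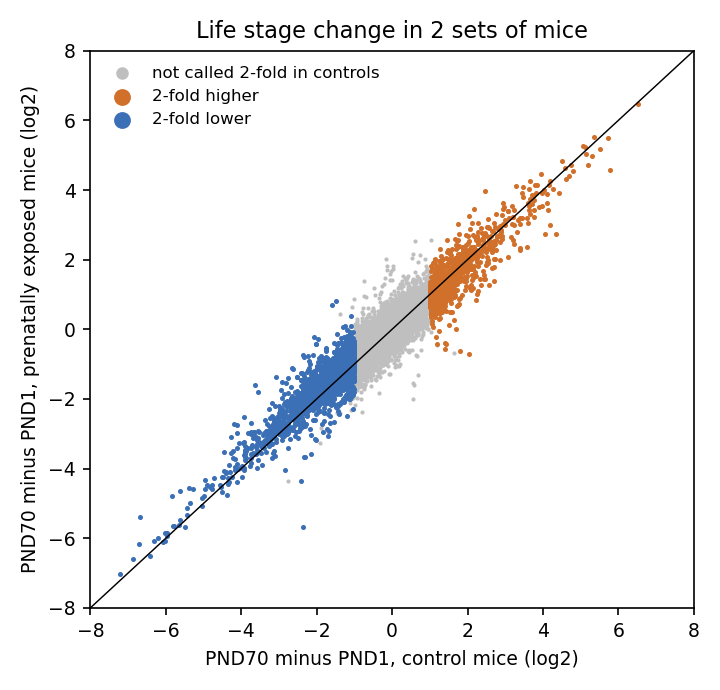
Life stage difference (PND70 minus PND1, log2) of every probe in control mice (horizontal) and prenatally exposed mice (vertical), 3 mice per age in each, with probes called 2-fold in controls in colour. Of these, 1493 of 1501 higher and 2733 of 2739 lower probes have the same direction on both axes, beside 34703 of all 42006 probes.

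The reference channel was not constant between the ages. Cy5 values differed for 15451 probes at an adjusted p of 0.05 (36.8%), and 325 probes (0.774%) differed at least 2-fold, 237 of them higher on the PND70 arrays. Without background subtraction 139 did. The median absolute Cy5 difference was 0.24, about the size of the median life stage difference of the ratio (0.25), while at the 99th percentile they were 0.95 and 2.62. Changes below about 0.25 log2 units in the ratio were therefore no larger than the median shift of the reference channel. These are unlike measures, since Cy5 was fitted as a single channel without the loess step. Its differences also followed those of the liver signal, so 0.25 is not a measured noise level of the ratio.

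Cy5 mostly moved in the direction of the liver signal. Of the 1501 probes 2-fold higher, 67.9% had a higher Cy5 value at PND70 (median 0.25), and of the 2739 lower probes 84% had a lower one (median -0.24). At 8-fold higher the median Cy5 difference was 0.84, against 4.43 for Cy3 alone and 3.73 for the ratio. At 8-fold lower it was -0.35, against -3.64 for Cy3 alone and -3.66 for the ratio, so there the ratio was not smaller than the liver change. Across all probes the Cy3 and Cy5 differences correlated at 0.655, a description over probes that share spots and arrays. In Cy3 alone, 4201 of the 4240 probes kept their direction and were called, and 3814 were 2-fold. In the Cy5 differences the day of image processing and the age of the mice cannot be told apart.

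For some of the most abundant transcripts the ratio did not show the change in the liver channel. On 26 probes the Cy3 spot was saturated on all 3 control arrays of one age and on none of the other, 9 at PND1 and 17 at PND70. These probes were singled out after their values were seen. Of the 9 saturated at PND1, all with a higher mean Cy3 value in the newborn, 6 were called higher at PND70 in the ratio, 2 lower and 1 neither way. Of the 17 saturated at PND70, 9 were called higher, 2 lower and 6 neither way. A saturated spot gives only a lower limit, so folds of the liver channel are given as bounds, the smallest of the folds on 3 scales. The ratio at the saturated age is only a lower limit as well, or unknown where Cy5 was saturated too, so neither the size nor, where it opposes Cy3 or lies near 0, the sign of these ratio differences is known, and the calls describe the computed values.

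Z00026161-1 had net Cy3 signals of 2344, 1239 and 273.1 units at PND1 and 65140, 65136 and 65130 at PND70. Its Cy5 signals were 96.6, 71.5 and 36.8 at PND1 and 17057, 20991 and 19818 at PND70. Both channels rose without overlap, and the computed ratio differed by -0.39, while the liver channel was at least 50.7-fold higher at PND70. Z00027115-1 was alike, with Cy3 signals of 2203, 1439 and 333.4 units at PND1 and 65142, 65144 and 65139 at PND70, where Cy5 was saturated as well. The prenatally exposed mice showed the same, with Cy3 signals for Z00026161-1 of 131.0, 446.5 and 7524 units at PND1 and 65137 to 65140 at PND70. Newborn livers thus varied widely in this transcript, and saturation hides any spread among the adult ones.

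In the opposite direction, Z00025156-1 had Cy3 signals of 65143, 65141 and 65146 units at PND1 and 3367, 3906 and 1628 at PND70, at least 22-fold higher at PND1. Its computed ratio differed by 0.59, and Cy5 fell as well, from 9396 to 15729 units down to 160.1 to 302.0. Z00035213-1 had 65141, 65141 and 65146 units at PND1 and 9137, 5983 and 9520 at PND70, a liver signal at least 7.18-fold higher in newborns. Its computed ratio was 1.99 higher at PND70, an upper limit, with a Cy5 difference of -5.36. Z00034757-1, with Cy3 signals of 65139 to 65147 at PND1 and down to 84.1 at PND70, was at least 525-fold higher at PND1. In this probe the computed ratio had the direction of Cy3 at -5.66, and Cy5 differed by -4.13.

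**Figure D4:**
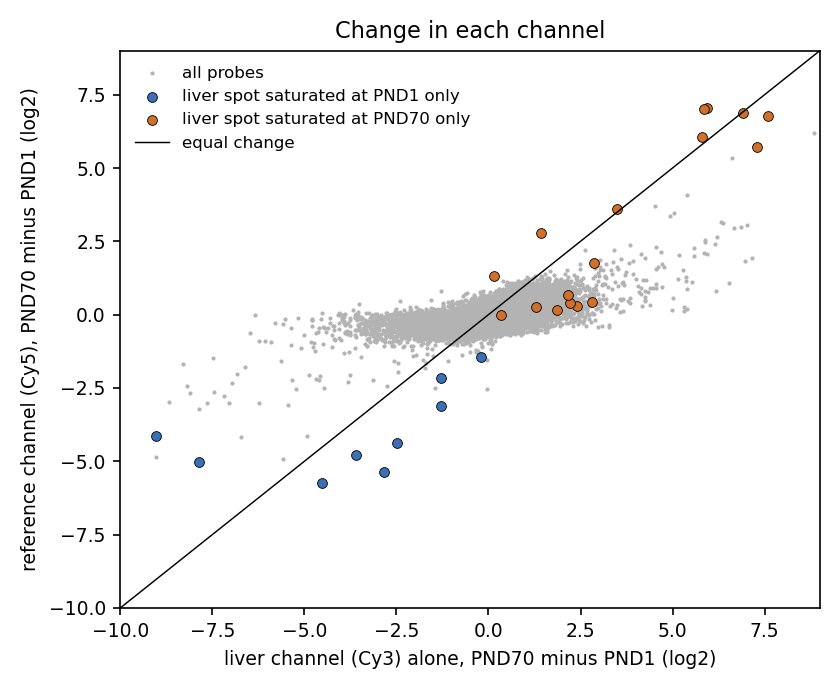
Difference between ages (PND70 minus PND1, log2) in the liver channel (Cy3, horizontal) and the reference channel (Cy5, vertical) for 42006 probes, with the 9 and 17 probes whose liver spot was saturated at one age only in colour. Coloured points near the line of equal change, such as Z00026161-1 at 5.95 and 7.04, are those whose computed ratio shows little or the opposite of the liver change.

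**Figure D5:**
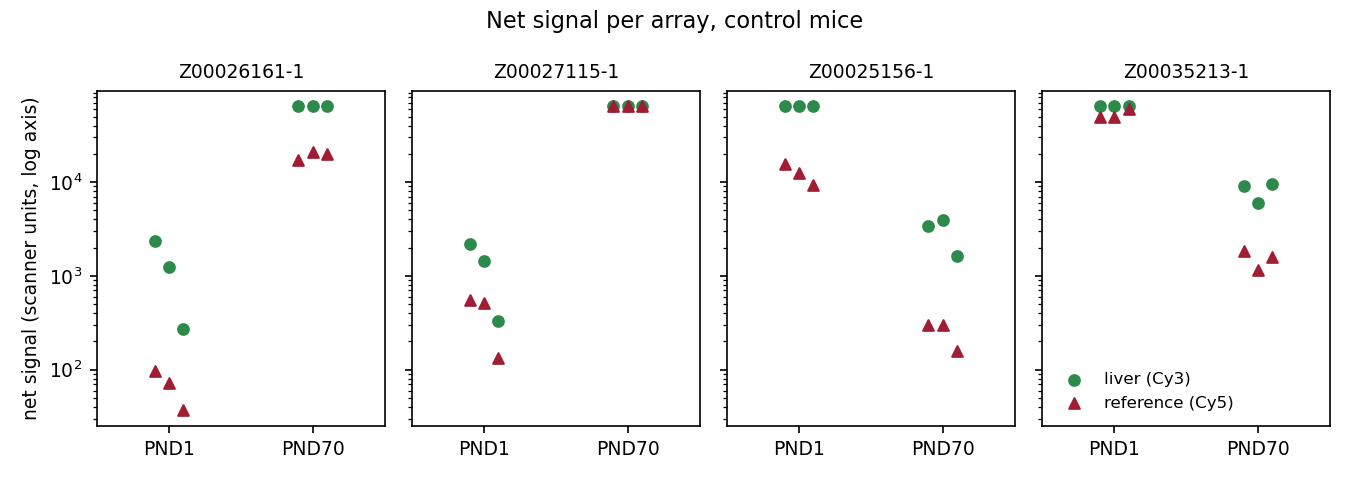
Net signal in scanner units on a log axis for 4 probes, 1 point per control array in each channel. Cy3 lies at about 65140 units at the brighter age in all 4, and Cy5 moves in the same direction as Cy3.

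The direction of the ratio was that of Cy3 alone in 79.7% of all probes and in 91.9% of those called. Of 6090 probes called at least 2-fold in Cy3 alone, 5956 were called the same way in the ratio, 3811 of them 2-fold, while 125 were not called and 9 were called in the opposite direction. Of 343 probes that differed at least 8-fold in Cy3 alone, 336 were called 2-fold the same way in the ratio, 6 were not called and 1 was called in the opposite direction. Leaving out every probe with a saturated liver spot on any of the 6 arrays left 4203 of the 4240 calls at 2-fold. The reference channel had its own ceiling. On 233 probes the Cy5 spot was saturated on all 6 control arrays, and of these 149 were called 2-fold lower and 1 2-fold higher, while their Cy5 values could show no shift. Of 13 probes whose liver spot was saturated on all 6 arrays, 1 was called 2-fold higher, and for these neither age's liver level is known.

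The 2-fold calls were rarer among GC-rich probes. Among probes with 40% to 45% GC 4.39% were 2-fold higher and 6.57% lower, and among those with 60% or more 1.04% and 4.53%. The median GC content was 43.3% among the 2-fold higher, the 2-fold lower and all probes, and GC content correlated with the life stage difference at -0.012 across probes. The hexamer AATAAA was present in 8.26% of the 2-fold higher probes (124), in 11.1% of the 2-fold lower probes (305) and in 6.75% of all probes. On the opposite strand (TTTATT) the shares were 3.06%, 3.43% and 3.42%. The probes with 2-fold changes were also brighter, with median log2 Cy3 values of 8.98 and 9.14 against 7.49 over all probes, and the part of brightness in the motif shares was not tested.

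A small number of probes could be placed in the genome, by an exact match of all 60 bases to the RefSeq windows from 250 bases before to 50 after gene starts (GRCm38.p6). The windows held 289 probes, of which 10 were called 2-fold higher and 5 lower, beside 3.57% and 6.52% of all probes. Of the 289, 93 lay within 1 gene on its strand. Of those 93, 42 were called (45.2%, beside 50.9% of all probes), 11 higher and 31 lower, and 21 of the 42 were called the same way in Cy3 alone. The windows cover only the surroundings of gene starts, so these 93 are no sample of the liver's genes. Whether a placed probe lies in an exon was not known, and other copies in the genome were not searched.

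The only 2-fold call among the 93 was for Gm21286, a lncRNA gene on chromosome 4, at chr4:60838901-60838960 on the plus strand. The probe is shown as it is the only change of this size placed within 1 gene on its strand.
Z00071252-1: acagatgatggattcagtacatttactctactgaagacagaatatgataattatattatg

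Its log2 ratios were 0.06, 0.26 and 0.00 at PND1 and 2.86, 3.50 and 3.68 at PND70, with net Cy3 signals of 25.3, 31.4 and 37.6 units and then 249.1, 590.4 and 668.3. No PND1 array and all 3 PND70 arrays exceeded the negative control level, so the PND70 Cy3 level was at least 6.68-fold higher. The adjusted p (limma) was 4.13e-07 in Cy3 alone and 1.03e-07 for the ratio, and Cy5 differed by 0.65 in the same direction (limma adjusted p = 0.0031). All 8 protein-coding genes that RefSeq places within 500 kb of it are Mup genes, which encode major urinary proteins, pheromone carriers made in quantity by adult mouse liver. Sequences of that cluster are near copies of each other, so the signal may include other transcripts of it.

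For the 65 probes placed within 1 protein-coding gene on its strand, the changes of the ratio were under 2-fold. Sympk (chr7:19054553-19054612), a scaffold of the machinery that forms mRNA 3′ ends, fell by 0.98 ± 0.12 (SE, limma adjusted p = 4.48e-05), from a mean of -0.19 to -1.17, with a Cy5 difference of -0.04. Pcif1 (chr2:164891221-164891280), which methylates the first adenosine of capped mRNA, fell by 0.89 ± 0.07 (limma adjusted p = 2.32e-06), from 0.58 to -0.31. Its Cy5 differed by -0.57 (limma adjusted p = 0.00507), and its Cy3 alone by -1.25. Hacl1 (chr14:31640820-31640879), a peroxisomal lyase of fatty acid alpha-oxidation, was higher by 0.49 ± 0.19 (limma adjusted p = 0.0458), with arrays that overlapped between the ages and a Cy5 difference of 0.38. For Bcl11a (chr11:24172868-24172927), a repressor of fetal globin genes, the ratio was lower by 0.62 (limma adjusted p = 0.00154), and Cy3 alone differed by -0.37 (limma adjusted p = 0.264) and Cy5 by 0.15. These 4 genes were chosen after their values were seen.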

How the data were processed

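Samples were grouped by their titles. On each array liver RNA was labelled with Cy3 and reference RNA with Cy5. The intensity values that the authors deposited come from Agilent Feature Extraction (A.7.5.1 per the file headers) and are the mean and local background signals of every spot in both dyes, with no scaling between arrays. The deposited log10 ratio, which divides red by green with corrections of the scanner software, served as an alternative with its sign turned. The study's methods name mean-centring, quantile normalization, log2 transformation, lowess smoothing and a two-way model at p 0.01.

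Here, all 44290 spots were background corrected (normexp, offset 50). Quantile normalization was then done per channel over the 12 arrays of 4 groups (controls and prenatally exposed mice at both ages), and a loess curve (span 0.3) was removed from log2 Cy3 over Cy5. Control spots (1942 positive, 314 negative) were left out after this, outlier spots (8 to 172 on a control array) counted as missing, saturated ones stayed in, and averaging spots gave 42006 probes. A limma 3.58.1 model (R 4.3.3) with one mean per group had 8 residual and 3.09 prior degrees of freedom, and the contrast was PND70 control minus PND1 control with Benjamini-Hochberg adjustment. Calls used an adjusted p of 0.05, with or without a log2 difference of 1. Cy3 alone and Cy5 were fitted the same way after quantile normalization. The procedure was tested on simulated arrays, in which the PND70 against PND1 comparison over 42006 probes recovered 90 of 100 probes changed 2-fold and 99 of 100 changed 4-fold, and 15 unchanged probes were called. The changed probes were taken from the middle of the Cy3 range, without the dimmest and brightest. Far fewer probes were changed than were called in the data, and the simulated reference did not shift between ages. Recovery in dim probes, or with such a shift, was therefore not tested. With 3 arrays in a group, precision is limited by their number.

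Bounds compare the brighter age's mean with, per array of the dim age, the higher of its own value and the lowest detected one. The smallest fold is given of 3 scales, a choice made after seeing the data: channel values after loess and Aquantile, quantile normalized Cy3, and net signal. They are open to dye bias, since no dyes were swapped. Among the 6 control arrays, no 2 shared more than 0.0262% identical Cy3 signals. The probes named by size are the first 5 in each direction under the stated rule. The members, lists and rules were chosen with earlier results of these data known. Planned counts over gene lists were not made, since no table pairing these probes with genes was used here. The 3 arrays of mice given arsenic after weaning entered only an alternative.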

Additional observations from a re-analysis of the deposited data

Results flagged for a closer look

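The life stage change differed between prenatally exposed and control mice for 2 probes, by a test of the difference itself (limma, Benjamini-Hochberg over 42006 probes). Z00011620-1 was higher at PND70 by 1.27 on the log2 scale in controls and by 2.30 in exposed mice, a difference of 1.03 (limma adjusted p = 0.0384). Its log2 ratios were -1.38, -1.52 and -1.29 in PND1 controls and -0.04, -0.19 and -0.17 in PND70 controls, against -1.86, -1.75 and -1.76 and then 0.44, 0.58 and 0.50 in exposed mice, so exposed mice lay lower at PND1 and higher at PND70, with no overlap. Z00063258-1 differed by -1.83 in controls and by -1.09 in exposed mice, a difference of 0.75 (limma adjusted p = 0.0409). At PND70 both sets lay between -0.26 and -0.19, and at PND1 the controls had 1.63, 1.57 and 1.61 and the exposed mice 0.89, 0.78 and 0.96, so the difference lay in the newborns. Z00028025-1, which shares at least 30 bases with Z00063258-1, was not called 2-fold between the ages in controls. Groups of 3 were not searched probe by probe for single arrays that stand apart.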

How the results depend on the processing

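Without background subtraction, 2021 probes were called 2-fold in place of 4240 and 139 in place of 325 in the reference channel, since background left in both channels compresses ratios. Restricting the 2-fold calls to probes with a Cy5 difference under 0.25, chosen after seeing the data, left 1856. Under the other settings (no quantile step, ratios quantile normalized, median centring, liver channel alone, the scanner software's ratio, a dim filter, the 6 or all 15 arrays, unmoderated variances, array weights, an unadjusted p of 0.01) the 2-fold count lay within 1.5 times of 4240. Leaving out each control array in turn gave 17711 to 22135 calls at the adjusted p, 3920 to 4893 at 2-fold and 248 to 478 in the reference channel. The 10 probes named by size kept their direction and call in all 18 alternatives, but their sizes moved. Z00033491-1 ranged from 4.51 to 6.60, Z00060225-1 from 3.62 to 5.58 and Z00000398-1 from 4.39 to 7.15, and the 5 lower probes from -8.69 to -5.71. With a replicate block, 20863 and 4242 probes were called. The deviations of same-numbered arrays, and not their log2 ratios, correlated at -0.084 to -0.030, so no pairing of the mice by number was seen. Gene list counts and the choice among probes of a gene were not run, as no table pairing these probes with genes was used here.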
